A study of Homo sapiens with 6 samples.

Results

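The cytosolic ribosomal proteins are the protein components of the ribosomes that translate nuclear-encoded mRNA. Members were the protein-coding genes of the deposited table named RPL or RPS and a number, together with RPLP0, RPLP1, RPLP2 and RPSA. The ribosomal S6 kinases, names of pseudogene form, RPS27L and rows of chromosome Y were left out. This gave 87 genes of 58735 in the table, of which 19951 were protein-coding. The members divided into 55 of the large (60S) and 32 of the small (40S) subunit, and 3 of them are readthrough genes that join a ribosomal protein gene to its neighbour.

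The cells were HT1080, a long-established line grown from a human fibrosarcoma. Of the 6 mRNA libraries, 3 were wild type (WT) and 3 came from cells edited with CRISPR-Cas9 to knock out GPR56 (KO). GPR56, approved symbol ADGRG1, is a receptor of the adhesion family that signals through G proteins. The descriptions of both genotypes carry the name of the solvent DMSO, with no dose or time. How many KO clones were used and whether the 3 libraries of a genotype came from separate cultures is not stated, so the p-values measure the spread between these libraries, which may be technical.

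Each ribosome carries nearly all of these proteins as single copies, apart from the paired stalk proteins RPLP1 and RPLP2, so cells make them in matched amounts. Their mRNAs are among the most abundant in growing cells and are short. Most begin with a terminal oligopyrimidine (TOP) tract, a C followed by a run of pyrimidines at the cap, through which the kinase mTOR and the binding protein LARP1 adjust their translation and stability together. Loss of a single copy of several of these genes causes Diamond-Blackfan anaemia, a failure of red cell production.

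The TOP tract was looked for around the annotated transcription starts, because it is the feature that sets these genes apart from most others at their promoters. Within 20 bases either side of the start, a C-led run of at least 8 pyrimidines on the sense strand was present in 56 of the 69 members with a RefSeq start (81.2%) and in 17.0% of 27305 genes. The letters CTTTCC on the sense strand were present in 24 of the 69 members (34.8%) and in 2.62% of all genes, or 4.63% of all genes with both strands searched. CTCTTTCC, which contains the former, was present in 11 members (15.9%) and in 0.330% of all genes. The following 30-base windows come from RefSeq on GRCh38.p14 and run from 10 bases before the annotated start into the transcript, with the longest C-led pyrimidine run of the window in capitals. They show the members with large increases first, then a short and variable member, a member with close genotype means and overlapping libraries, and last the only member that fell.
RPL21, chr13:27251548-27251577, plus strand: ccgCCTCTTTCCTTTCggccggaaccgcca
RPL13A, chr19:49487598-49487627, plus strand: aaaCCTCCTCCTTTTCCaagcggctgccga
RPS19, chr19:41860245-41860274, plus strand: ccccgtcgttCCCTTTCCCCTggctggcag
RPL3, chr22:39319604-39319633, minus strand: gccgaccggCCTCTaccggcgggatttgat
RPL41, chr12:56116623-56116652, plus strand: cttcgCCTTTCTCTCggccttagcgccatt
RPL39, chrX:119791611-119791640, minus strand: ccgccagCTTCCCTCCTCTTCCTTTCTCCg
RPL7L1, chr6:42879606-42879635, plus strand: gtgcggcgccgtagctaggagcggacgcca
RPL21, RPL13A, RPS19, RPL41 and RPL39 hold a run of at least 8, the run of RPL3 is 5 bases long, and the RPL7L1 window holds no run to mark. A match is a description of the annotated start and not evidence of a TOP tract in these cells.

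ADGRG1 was lower in every KO library, at 6.61, 6.07 and 6.87 FPKM in WT and 2.68, 2.54 and 2.58 FPKM in KO (log2 fold change −1.06, SE 0.07, limma adjusted p = 6.24e-05). FPKM are reads scaled by gene length and library size. The libraries held 16410352 to 17276269 reads, so that 1 read in a gene of 1 kb was worth 0.0581 to 0.0602 FPKM. Of 9 fibroblastic markers 6 reached a mean of at least 1 FPKM, while 0 of 7 epithelial, 0 of 6 blood, 0 of 5 endothelial and 0 of 5 hepatocyte markers did. CDH1, PTPRC and ALB were at 0. The summed level of the endothelial markers was nevertheless 0.602 to 0.638 FPKM in WT and 1.58 to 1.83 in KO, with PECAM1 at 0.326 ± 0.034 and 1.23 ± 0.18 FPKM, and that of the epithelial markers was 0.345 to 0.396 and 0.901 to 1.005 FPKM, with CLDN4 at 0.330 ± 0.051 and 0.906 ± 0.026 FPKM. The part of these markers in the results was not tested. The libraries also carried a trend with the GC content of genes that ran with genotype. Across genes, which are not independent replicates, genes of high GC content were low in WT 1 and WT 2 (Spearman correlation of deviation and GC content −0.40 and −0.62), near level in WT 3 (−0.01) and high in KO 1, KO 2 and KO 3 (0.46, 0.44 and 0.23). Values corrected for this trend and for gene length are therefore given beside many of the list counts and named genes. A gene given without a corrected value can also move under the correction.

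Ribosomal protein mRNA took a larger share of every KO library. The members held 5.96%, 6.19% and 6.42% of all reads in the WT libraries and 7.55%, 7.12% and 7.12% in the KO libraries. The lowest KO library lay above the highest WT library. The means were 6.19 ± 0.23% and 7.26 ± 0.25% (SD, n = 3 each), a difference of 1.07 percentage points, which stayed between 0.928 and 1.19 points when any single library was left out. Both subunits moved by the same ratio of 1.17, the large subunit from 3.77 ± 0.14% to 4.42 ± 0.18% and the small subunit from 2.42 ± 0.09% to 2.84 ± 0.07%. As a share of the summed FPKM of protein-coding genes, the members went from 9.02 ± 0.29% to 10.1 ± 0.5%. Mitochondrial reads were also higher in every KO library, at 2.45 ± 0.23% and 3.31 ± 0.46% of reads (ratio 1.35), and their part in the result was not tested. Pseudogene copies of the members, which can take reads of their parents, went from 0.213 ± 0.012% to 0.246 ± 0.008% of reads, a ratio of 1.15. In bulk RNA a change in the mixture of cells and a change of RNA per cell cannot be told apart, and a share of reads does not say whether a cell holds more ribosomal protein mRNA.

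**Figure D1:**
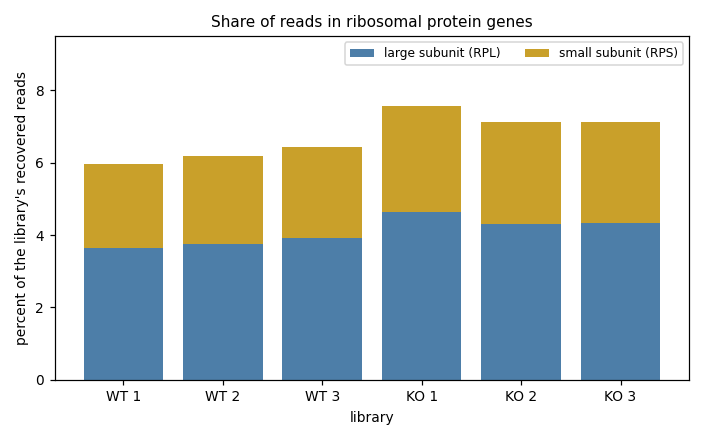
Share of each library's recovered reads that fell in ribosomal protein genes (y axis, percent), for the 3 WT and 3 KO libraries (x axis), stacked by subunit. The 3 WT bars end between 5.96% and 6.42% and the 3 KO bars between 7.12% and 7.55%, with both subunits taller in KO.

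Most ribosomal protein genes lay slightly higher in KO, each by a small step. Of the 87 members, 81 had a mean of at least 1 FPKM and were tested. Of these 29 rose, 1 fell and 51 did not pass the test (limma on log2(FPKM + 1), adjusted p by Benjamini-Hochberg over 12000 genes, threshold 0.05), so 35.8% rose, where 21.0% of all tested genes were called higher and 22.4% lower. Fold changes are KO minus WT on that log2 scale. The median over the 81 was 0.21, with quartiles of 0.09 and 0.31 and a range of −0.26 to 0.71, beside a median of −0.01 and quartiles of −0.24 and 0.23 over all tested genes. The fold change was above 0 in 71 of the 81. All KO libraries lay above all WT libraries in 43 members, and below them in 1, where 26.4% and 28.3% of all tested genes did so.

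The count of members called depended on single libraries more than the median did. It was 10 without WT 1 (12.3% of members, where 15.4% of all genes were then called higher), 16 without KO 2 (19.8%, where 15.7% of all genes were) and 18 without KO 3 (22.2%, where 17.5% were). The medians in these 3 settings were 0.18, 0.24 and 0.22. After the GC and length correction, 28 members rose and 1 fell, with a median of 0.15, where 20.7% of all genes were higher and 22.9% lower. The corrected and uncorrected lists shared 22 of the 29 members. RPL8, RPL12, RPL29, RPS15, RPS16 and RPS18 were among those no longer called, and RPL6, RPL7, RPL9, RPL34, RPL36AL and RPS7 were called in their place.

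**Figure D2:**
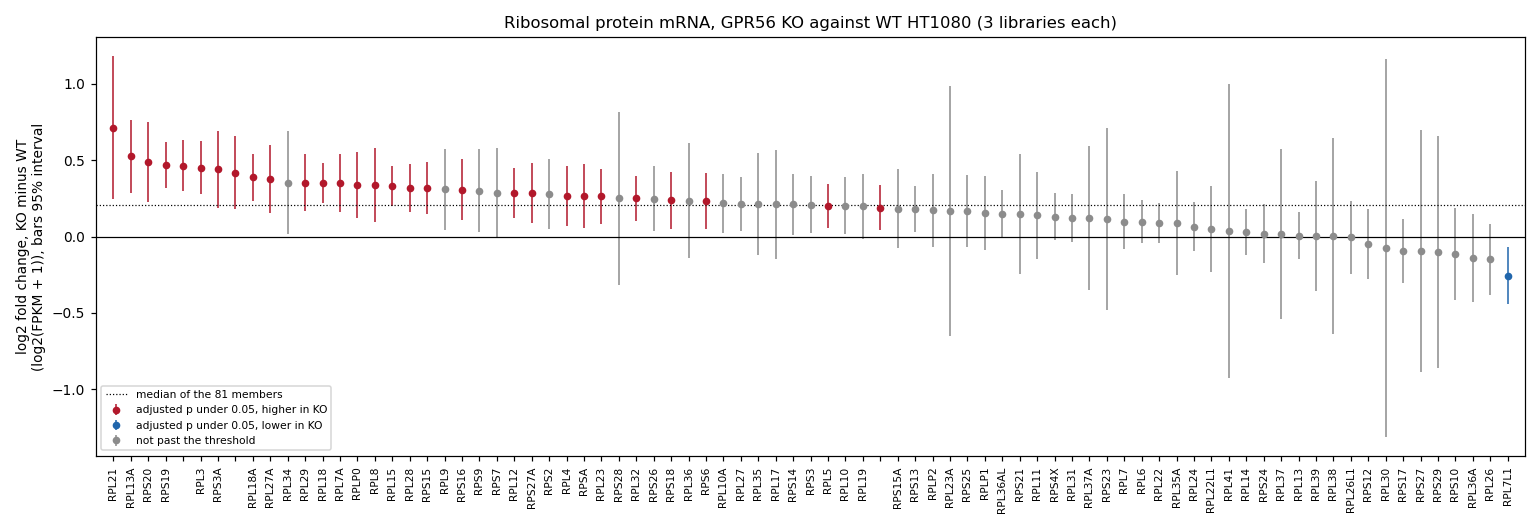
Log2 fold change of each of the 81 tested ribosomal protein genes (y axis, KO minus WT on the log2(FPKM + 1) scale, bars 95% intervals), ordered from the largest increase to the largest decrease (x axis, with some names left out). The 29 genes past the threshold in red lie in the upper part of the order, RPL7L1 is the only gene past it below 0, and the widest intervals belong to genes such as RPL30 and RPL41 whose level varied within a genotype.

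The largest increase was in RPL21, a large-subunit protein whose gene is mutated in a hereditary hair loss (ENSG00000122026, chromosome 13, positions 27251309 to 27256691 on GRCh38). Its level was 238, 285 and 193 FPKM in WT and 295, 422 and 465 FPKM in KO. The genotypes did not overlap, but the lowest KO library stood close to the highest WT library. The mean went from 239 ± 46 to 394 ± 88 FPKM (SD, n = 3), 1.65-fold, with a log2 fold change of 0.71 (95% interval 0.24 to 1.18, limma adjusted p = 0.0244, and 0.0279 after correction). The call was lost without WT 1, WT 3, KO 2 or KO 3 (adjusted p of 0.0646 to 0.0793). RPL21 is the only member on chromosome 13, where the other 238 tested genes had a median of 0.22 and 42.0% were higher. Its 66 pseudogenes held 6.69% of the family's reads, and those reads went up with the gene, by a ratio of 1.74 after scaling to library size.

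RPL13A, which can leave the ribosome as part of a complex that silences inflammatory mRNAs, was at 761, 769 and 916 FPKM in WT and 1272, 1143 and 1101 FPKM in KO (ENSG00000142541, chromosome 19, from position 49487554). Every KO library lay well above every WT library, and the mean rose 1.44-fold (log2 fold change 0.53, SE 0.10, limma adjusted p = 0.0057). After the GC and length correction the change was 0.35 (adjusted p = 0.0132).

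RPL3, which reaches to the peptidyl transferase centre where peptide bonds form, was at 377, 369 and 417 FPKM in WT and 536, 541 and 512 FPKM in KO. The libraries of each genotype sat close together, and the log2 fold change was 0.45 (SE 0.07, limma adjusted p = 0.00281, and 0.30 with 0.00414 after correction). RPL15, a core protein of the large subunit, showed the same tightness, with means of 153 ± 4 and 192 ± 3 FPKM (log2 fold change 0.33, limma adjusted p = 0.00339), and its value after correction was 0.34.

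The stalk of the large subunit, which recruits the translation factors that use GTP, gave 1 called member of 3, where 21.0% of all tested genes were higher. RPLP0, the base of the stalk, was at 620.4, 735 and 678 FPKM in WT and 832, 814 and 923 FPKM in KO, and rose by 0.34 (limma adjusted p = 0.021, and 0.069 and 0.0826 without KO 3 or WT 1). RPLP1 was at 486, 543 and 465 FPKM in WT and 505, 539 and 625 FPKM in KO. RPLP2 was at 269, 254 and 323 FPKM in WT and 336, 311 and 302 FPKM in KO. The genotypes overlapped for both of these acidic proteins, with log2 fold changes of 0.16 (95% interval −0.09 to 0.40) and 0.17 (−0.07 to 0.41), and of 0.12 and −0.04 after correction.

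RPL5 and RPL11 bind the 5S ribosomal RNA and, when free of the ribosome, bind MDM2, the ligase that marks p53 for degradation. RPL5 was at 255, 254 and 272 FPKM in WT and 296, 308 and 295 FPKM in KO. It rose by 0.20 (limma adjusted p = 0.0348), with no overlap between genotypes and an increase of 0.49 after correction (adjusted p = 0.00605). Without WT 1, WT 2, KO 1, KO 2 or KO 3 its adjusted p was 0.0612 to 0.139. RPL11 was at 207, 179 and 227 FPKM in WT and 256, 223 and 198 FPKM in KO, where the lowest KO library fell below 2 WT libraries (log2 fold change 0.14, limma adjusted p = 0.392).

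Around the exit tunnel, through which the new peptide leaves, 1 of 8 tested members rose (12.5%, where 21.0% of all tested genes were higher), before and after correction. This was RPL4, which lines the tunnel, with means of 345 ± 27 and 415 ± 25 FPKM (log2 fold change 0.27, limma adjusted p = 0.0361). RPL39, a short protein of the same tunnel, was at 112, 127 and 138 FPKM in WT and 159, 112 and 111 FPKM in KO. Its genotype means differed by 0.00 on the log2 scale with a 95% interval of −0.36 to 0.36, and the libraries of the 2 genotypes were interleaved. RPL10, one of the last proteins to join the large subunit, was at 222, 255 and 240.3 FPKM in WT and 279, 257 and 288 FPKM in KO (log2 fold change 0.20, limma adjusted p = 0.0782, and 0.11 with 0.28 after correction). Other genes overlap 55.5% of its exonic bases, with 34.2% covered by DNASE1L1 on the opposite strand, and the counting of strand is not given in the sources used here.

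RPL13, a large-subunit protein, had genotype means that were close together, at 226, 239.7 and 237 FPKM in WT and 227, 229 and 248 FPKM in KO. The difference was 0.00 with a 95% interval of −0.15 to 0.16, and −0.15 after correction (limma adjusted p = 0.153). RPL13 lies on the long arm of chromosome 16, where 239 other tested genes had a median of −0.28 and 130 of them fell. Whether position bears on the level of RPL13 was not tested.

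In the head of the small subunit, 7 of 14 tested members rose and 0 fell, where 21.0% of all tested genes were higher. After correction 4 of the 14 were higher (28.6%, where 20.7% of all tested genes were), and the median went from 0.24 to 0.14. RPS20, a protein of the head, was at 239, 256 and 238 FPKM in WT and 288, 366 and 380.4 FPKM in KO, and its log2 fold change was 0.49 (limma adjusted p = 0.0114, and 0.54 with 0.00367 after correction). RPS19, the gene most often mutated in Diamond-Blackfan anaemia, was at 269.9, 281 and 296 FPKM in WT and 397, 386 and 392 FPKM in KO (ENSG00000105372, chromosome 19, from position 41859918). The libraries of each genotype sat close together, and RPS19 had the smallest adjusted p of all members (log2 fold change 0.47, SE 0.06, limma adjusted p = 0.00133, and 0.30 with 0.00576 after correction).

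Elsewhere in the small subunit, RPS3A, at the exit of the mRNA channel, was at 291, 364 and 288 FPKM in WT and 399, 421 and 454 FPKM in KO. It rose by 0.44 (limma adjusted p = 0.0145) and by 0.58 after correction, and its adjusted p was 0.0588 without WT 1. RPS6, the small-subunit protein phosphorylated by the S6 kinases downstream of mTOR, was at 363, 424 and 399 FPKM in WT and 460.2, 454 and 476 FPKM in KO. Its increase of 0.23 passed narrowly (limma adjusted p = 0.0456), and the adjusted p was 0.0716 to 0.168 without WT 1, WT 3, KO 1, KO 2 or KO 3. RPSA, known also as the precursor of the laminin receptor, was at 449.5, 493 and 459 FPKM in WT and 501, 587 and 600.1 FPKM in KO. It was the called member nearest to the threshold (limma adjusted p = 0.0489), and RPS2 was the nearest outside it, with means of 1299 ± 132 and 1571 ± 77 FPKM (adjusted p = 0.0522). RPSA exceeded the threshold without any 1 library other than KO 1 (adjusted p of 0.0557 to 0.16).

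Of the 18 tested members whose mutation causes Diamond-Blackfan anaemia, 4 rose and 0 fell, which is 22.2% and near the 21.0% of all tested genes. The 4 were RPS19, RPL5, RPL15 and RPL18, and the list's median was 0.17. RPL18 was at 137, 138 and 143 FPKM in WT and 174, 178 and 181 FPKM in KO, a log2 fold change of 0.35 with very little spread (limma adjusted p = 0.00268, and 0.19 with 0.0228 after correction).

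The paralogues, second copies that can replace a ribosomal protein or that act elsewhere, gave 0 that rose and 1 that fell of 4 tested. Of all tested genes, 21.0% were higher and 22.4% lower, so counts in so few genes are near the background. RPL7L1, a nucleolar relative of RPL7 linked to ribosome assembly, was at 41.9, 43.1 and 38.6 FPKM in WT and 32.4, 32.9 and 37.7 FPKM in KO (ENSG00000146223, chromosome 6, from position 42879618). All KO libraries lay below all WT libraries, by a small gap, and the log2 fold change was −0.26 (95% interval −0.44 to −0.07, limma adjusted p = 0.0347, and −0.24 with 0.0181 after correction). The call was lost without WT 1, WT 2, KO 1 or KO 2 (adjusted p of 0.0845 to 0.121). RPL7 itself was at 256 ± 10 and 274 ± 21 FPKM (log2 fold change 0.10, limma adjusted p = 0.344, and 0.31 with 0.0303 after correction).

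RPL22 and RPL22L1 are a pair in which RPL22 is known to hold down its paralogue. RPL22 was at 26.9, 27.4 and 28.2 FPKM in WT and 28.3, 30.1 and 29.5 FPKM in KO, with a log2 fold change of 0.09 (95% interval −0.04 to 0.22). RPL22L1 was the more abundant per length, at 80.2, 105 and 76.4 FPKM in WT and 87.6, 86.2 and 94.5 FPKM in KO, with a log2 fold change of 0.05 (−0.24 to 0.33). RPL26L1 was at 33.4 ± 4.5 and 33.2 ± 2.1 FPKM, beside RPL26 at 24.5 ± 2.6 and 22.0 ± 2.0 FPKM, and neither passed the test. RPL36AL was at 122, 112 and 124 FPKM in WT and 137, 129 and 129.9 FPKM in KO (log2 fold change 0.15, limma adjusted p = 0.118, and 0.25 with 0.0353 after correction), while RPL36A, whose product it resembles, was at 1.71 ± 0.06 and 1.48 ± 0.39 FPKM. RPL10L, RPL39L and RPL3L, known from testis and muscle, were not tested. RPL10L and RPL39L were listed at 0 in all libraries, and RPL3L had 9 reads over the WT and 12 over the KO libraries.

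Some very low values belong to genes that share sequence with others. The readthrough genes RPL36A-HNRNPH2 and RPL17-C18orf32 were listed at 0 and RPS10-NUDT3 was at 0 in WT and 0.0037 FPKM in KO. RPS10 had means of 1.32 and 1.16 FPKM, with 37 to 64 reads per library, and RPL17 had means of 5.23 and 6.19 FPKM. Of their exonic bases, 39.4% and 35.3% are shared with other genes, and pseudogenes held 42.0% of the RPS10 family's reads. Pseudogenes also held 31.2% of the RPS28 family, 28.7% of the RPL9 family and 18.1% of the RPL7 family. The levels of these members are therefore uncertain. Of 1144 pseudogenes of members, 388 had at least 1 read and 83 were tested. Of the 83, 11 were higher and 1 lower, where 21.0% of all tested genes were higher and 22.4% lower. Both counts are below those shares.

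Many members of short coding sequence varied within each genotype in a shared pattern that did not follow the genotype. RPL41, which at 25 codons encodes the shortest of these proteins, was at 364, 357 and 629 FPKM in WT and 858, 332 and 308 FPKM in KO. RPS27, a zinc finger protein of the small subunit, was at 242, 314 and 425 FPKM in WT and 504, 219 and 239 FPKM in KO. RPL30, which binds its own transcript in yeast, was at 24.4, 21.9 and 55.2 FPKM in WT and 64.8, 23.3 and 16.6 FPKM in KO. RPL38, known for its part in translating Hox mRNAs, was at 44.2, 46.8 and 79.9 FPKM in WT and 77.1, 47.5 and 45.5 FPKM in KO. In each of the 4 genes, WT 3 and KO 1 stood above the other libraries, and the genotypes overlapped widely. The log2 fold changes were 0.03, −0.10, −0.07 and 0.00, and the 95% interval of RPL30 ran from −1.31 to 1.17. Not all short members shared this pattern. RPLP1, RPL34 and RPS20, at 114, 117 and 119 codons, were lowest in WT 3 within WT and in KO 1 within KO.

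Of the 81 tested members, 36 (44.4%) were highest in WT 3 within WT and in KO 1 within KO, as were 17.0% of all tested genes. Their median coding length was 139 codons and that of the other members 188. The 10 members with the largest spread within genotypes had 25 to 156 codons and a median SD of 0.48 on the log2 scale, and 0 of them were called. The spread within genotypes is the error of the test, so choosing members by it largely set that count. Across the 81 members, which share libraries and depth, deviation from the genotype mean had a Spearman correlation with coding length of 0.22, 0.09 and −0.32 in WT 1 to 3 and −0.46, 0.35 and 0.35 in KO 1 to 3. The correlation of the spread within genotypes with coding length was −0.52 and that of the log2 fold change 0.39. Leaving out WT 3 and KO 1 together, an alternative chosen after these values were seen, gave 25 members higher (30.9%), 0 lower and a median of 0.22. In that setting 18.7% of all tested genes were higher. What these 2 libraries share was not tested.

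**Figure D3:**
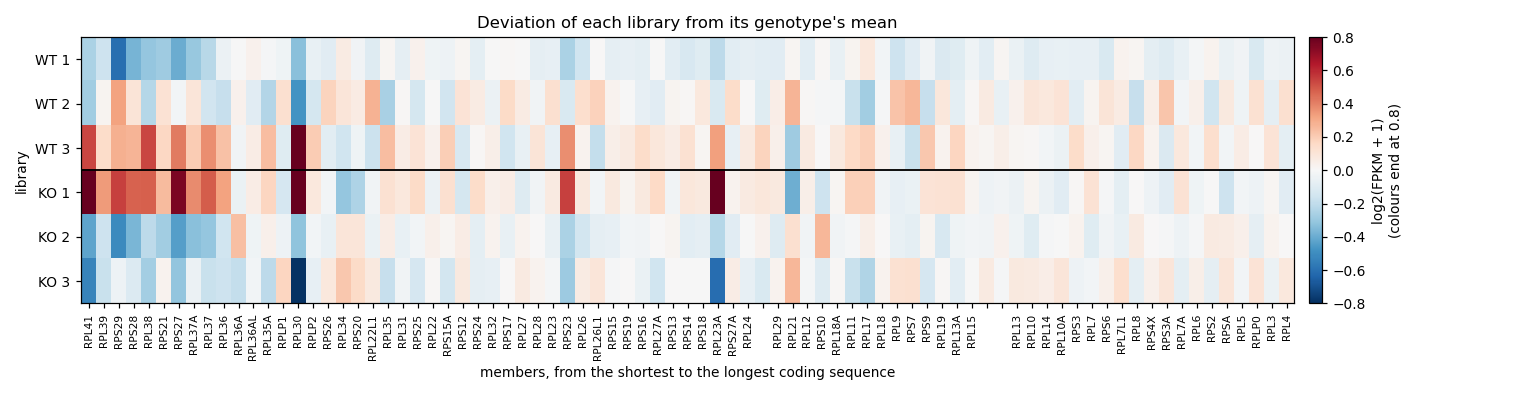
Heat map of the deviation of each library (rows) from its own genotype's mean for the 81 tested members (columns, ordered from the shortest to the longest coding sequence, with some names left out), in colour on the log2(FPKM + 1) scale, red for above and blue for below, with colours ending at 0.8. WT 3 and KO 1 are red over most of the short members at the left and at RPL30, RPS23 and RPL23A, where WT 1, KO 2 and KO 3 are mostly blue, and colours are paler over the longer members at the right.

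Changes were larger in the more abundant members. Across the 81 members the Spearman correlation of the log2 fold change with mean FPKM was 0.52, and with GC content 0.34 (−0.29 after correction). Of the 63 members with a mean of at least 100 FPKM, 46.0% rose and 0 fell, with a median of 0.25. Among the 307 other genes at that level, 28.3% were higher and the median was 0.11. After the correction those genes had 19.9% higher and a median of 0.00, and the members 44.4% and 0.16. The order of the members by level was nearly the same in both genotypes, with a Spearman correlation of 0.99 between the WT and KO means. RPS2 and RPS12, both of the small subunit, headed the order in both genotypes, and RPS12 was at 1355 ± 112 and 1309 ± 107 FPKM.

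Chromosome 19 carries 12 members, all tested, of which 9 rose, with a median of 0.33. On the other chromosomes 20 of 69 tested members rose and the median was 0.18. The 715 other tested genes of chromosome 19 had a median of 0.18 and 36.5% were higher, so the neighbours of these members were higher too. After the correction, 7 of the 12 rose with a median of 0.19, and the median of the neighbours was 0.03 with 25.6% higher. On the other chromosomes 21 members were then higher with a median of 0.13.

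**Figure D4:**
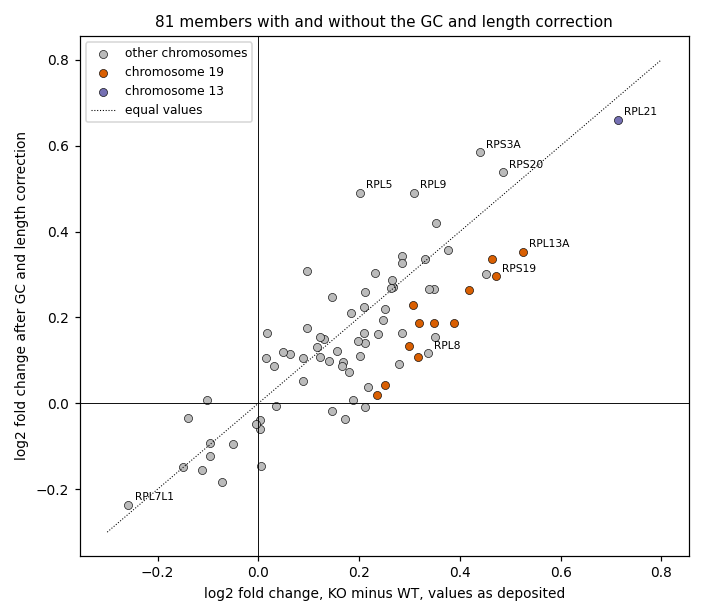
Log2 fold change of the 81 tested members after correction for GC content and gene length (y axis) against the uncorrected value (x axis), KO minus WT, with the line of equal values. The 12 members of chromosome 19 in orange lie below the line, as their median went from 0.33 to 0.19, while RPL5, RPS3A and RPL9 lie above it.

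The members were also set side by side by their start-site sequence. The 54 tested members with a C-led run of at least 8 pyrimidines had a median of 0.21 and 16 were higher, and the 12 without one had a median of 0.24, with 5 higher and 1 lower, where 21.0% of all tested genes were higher. Those with CTTTCC (22 tested) had a median of 0.21 and those without it (44 tested) 0.20. The difference between members with and without the run was not tested.

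The proteins of the ribosome that fall outside the naming rule, 3 of 3, rose as well, where 21.0% of all tested genes were higher. RACK1, a scaffold on the head of the small subunit, was at 197, 217 and 207 FPKM in WT and 254, 249 and 268 FPKM in KO (log2 fold change 0.31, limma adjusted p = 0.00876, and 0.21 with 0.0388 after correction). FAU, a ubiquitin-like protein fused to a small-subunit protein, went from 115 ± 12 to 143 ± 10 FPKM (limma adjusted p = 0.0275), and its call was lost after correction (0.0599) and without WT 1, WT 2, KO 1 or KO 2 (0.0684 to 0.0895).

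Other mRNAs known to start with a TOP tract, which encode mainly translation factors, had 7 of 16 tested genes higher and 0 lower, with a median of 0.15, where 21.0% of all tested genes were higher and 22.4% lower. After correction 9 were higher with a median of 0.22, and 4 were higher without WT 1, KO 2 or KO 3. The change was largest in TPT1, a protein named for its translational control, at 102, 112 and 95.1 FPKM in WT and 170.4, 202 and 206 FPKM in KO. Its KO libraries all lay far above WT (log2 fold change 0.90, limma adjusted p = 0.000522), and it lies on chromosome 13, as RPL21 does. EEF2, the elongation factor that moves the ribosome along the mRNA, went from 955 ± 61 to 1267 ± 32 FPKM (log2 fold change 0.41, and 0.21 after correction), the initiation factor EIF4B from 82.8 ± 1.7 to 104 ± 4 FPKM and EIF3L from 56.7 ± 5.0 to 77.8 ± 8.7 FPKM. EEF1A1, the factor that delivers tRNAs, was at 1609 ± 109 and 1877 ± 94 FPKM (limma adjusted p = 0.0692).

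Among genes that build the ribosome, more fell than rose. Of 56 tested genes of ribosome assembly, 21 fell and 2 rose, where 22.4% and 21.0% of all tested genes did, with a median of −0.14 (32 lower, 1 higher and −0.20 after correction). NOP58, the core protein of the small nucleolar particles that methylate ribosomal RNA, was at 45.6, 45.1 and 40.5 FPKM in WT and 24.3, 20.5 and 22.2 FPKM in KO, and fell to 0.510 of its WT mean (log2 fold change −0.94, limma adjusted p = 0.000223). The WT and KO libraries were far apart. UTP20, of the small-subunit processome, fell from 11.5 ± 0.8 to 7.20 ± 0.54 FPKM, MPHOSPH10, of the same complex, from 8.08 ± 0.81 to 4.88 ± 0.24 FPKM, and NIP7, which acts in the maturation of ribosomal RNA, from 28.4 ± 1.7 to 17.2 ± 1.2 FPKM.

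NIP7 is one of 3 assembly genes on the long arm of chromosome 16, all of which fell. Of the 53 elsewhere, 18 fell and the median was −0.12. The 2 that rose were EFL1, a GTPase that readies the large subunit, and FBL, the methyltransferase of the NOP58 particle, which went from 62.3 ± 5.7 to 74.8 ± 2.3 FPKM and lost its call after correction (limma adjusted p = 0.127). EFL1 alone was called without WT 1, WT 2 or KO 3, neither without KO 1 or KO 2, and 5 genes were higher without WT 3.

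RNA polymerase I, which transcribes the ribosomal RNA genes, and its factors had 1 of 15 genes higher and 3 lower, with a median of −0.15, where 21.0% and 22.4% of all tested genes were called, so the count lower is near the background. After correction 1 was higher and 4 lower with a median of −0.07, and 5 were lower without WT 3. POLR1D, a subunit shared with RNA polymerase III, was at 10.4, 12.3 and 11.4 FPKM in WT and 18.8, 18.3 and 20.4 FPKM in KO (log2 fold change 0.71, limma adjusted p = 0.000515). It lies on chromosome 13, as RPL21 and TPT1 do. TAF1A and TAF1C, subunits of its promoter factor, fell from 5.65 ± 0.34 to 3.86 ± 0.21 and from 9.20 ± 0.54 to 6.44 ± 0.65 FPKM. TAF1C lies on chromosome 16, where 31.5% of 536 other tested genes were lower, and whether position bears on its level was not tested. TWISTNB, a subunit of the enzyme, fell from 15.6 ± 1.7 to 12.5 ± 0.6 FPKM (limma adjusted p = 0.0291), but its change after correction was 0.00, and the call was lost without any 1 library other than WT 3 (adjusted p of 0.056 to 0.102).

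Among the regulators of TOP mRNAs, 4 of 15 tested genes rose and 4 fell, with a median of −0.05, near the 21.0% and 22.4% of all tested genes. After correction 3 were higher and 5 lower, with a median of −0.10. LARP1, which binds the TOP tract, was at 51.3, 48.5 and 54.3 FPKM in WT and 36.9, 38.0 and 37.8 FPKM in KO (log2 fold change −0.44, limma adjusted p = 0.00151). All KO libraries lay well below WT. LARP4, a related protein that protects poly(A) tails, fell from 14.6 ± 1.3 to 7.36 ± 0.50 FPKM (log2 fold change −0.89, limma adjusted p = 0.000263, and −0.54 after correction). CNBP, another protein reported to bind TOP mRNAs, fell from 382 ± 18 to 290.5 ± 1.6 FPKM. TBC1D7, the third subunit of the TSC complex that restrains mTOR, rose from 2.01 ± 0.05 to 3.17 ± 0.29 FPKM (limma adjusted p = 0.00314). MTOR was at 10.3 ± 0.4 and 9.92 ± 0.14 FPKM (log2 fold change −0.05, limma adjusted p = 0.529).

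**Figure D5:**
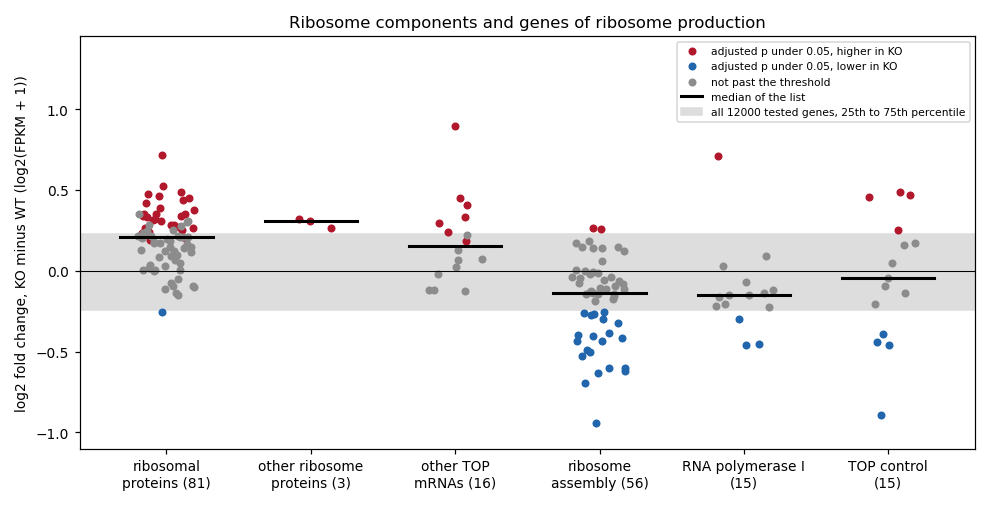
Log2 fold change of each tested gene (y axis, KO minus WT on the log2(FPKM + 1) scale) in the ribosomal protein genes and the lists of related genes (x axis), with the median of each list as a bar and the 25th to 75th percentile of all 12000 tested genes as a grey band. The ribosomal proteins and the other TOP mRNAs lie mostly above 0, with medians of 0.21 and 0.15, and the assembly and RNA polymerase I genes mostly below it, with medians of −0.14 and −0.15.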

How the data were processed

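The 6 libraries were compared as 3 WT against 3 KO. The authors deposited 1 table of FPKM values with gene lengths and positions. Aligner and counter: not given in the sources used here. GRCm38 and mm10 are named in the submitters' processing notes, but for 58735 of 58735 genes identifier, start and end equal human GENCODE 29 on GRCh38. FPKM times gene length gave whole reads within 0.02 for 100.0% of values, from which reads, shares and depth were recovered. Within a genotype, counts of each pair of libraries differed beyond sampling (4.92 to 16.5 chi-square units per degree of freedom). The libraries were counted as n = 3, but this spread does not show whether they came from separate cultures. Counting intervals were not used.

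The test was limma 3.58.1 (R 4.3.3; lmFit, eBayes with a mean-variance trend, two-sided) on log2(FPKM + 1) of the deposited values, for genes with a mean of at least 1 FPKM, with genotype as the only term and Benjamini-Hochberg adjustment over all of them. The method was checked on simulated reads, drawn gene by gene with a common dispersion and no GC trend. That check therefore does not cover the GC trend of these libraries or patterns that genes share within a library. A pseudocount understates changes of low genes. The exonic length behind FPKM covers all isoforms, which lowers the level of genes with many. The correction fitted a smooth function of GC content and length to each library (mgcv 1.9.3), and coding lengths come from GENCODE. Exact permutation of 3 against 3 libraries cannot go below a p of 0.1 and was not used.

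Members, lists and named genes were chosen with earlier results of these data known. Named with values by library were the 8 members with the largest increases, each called against the majority direction, and a list of stalk, 5S, paralogue and other genes whatever their values. Up to 4 genes with the smallest adjusted p were named for each related list. Some genes that this rule names are not reported here. RPL4, RPL7, RPL15, RPL18, RPL26, RPL30, RPL38, RPL41, RPS2, RPS10, RPS12, RPL17, EEF1A1, MTOR, EFL1 and FBL were added after their values were seen. The alternatives were another pseudocount, filter, scaling, correction and test (limma-voom on recovered reads), a replicate block and each library left out.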

Additional observations from a re-analysis of the deposited data

How the results depend on the processing

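The median of the members stayed above 0 under every setting run, from 0.18 to 0.24 with 1 library left out and 0.086 under quantile normalization, its lowest value. The count of members higher was 41 with limma-voom on recovered reads, 30 with a pseudocount of 0.1, 28 with the filter at 5 FPKM, 28 scaled to reads of other genes and 24 scaled to total reads. It was 7 with no filter (8.43% of members), where 31298 genes were tested and 8.0% of all genes were higher. Under quantile normalization it was 12 (14.8% of members), where 21.4% of all genes were higher. The members' share was thus near that of all genes with no filter and below it under quantile normalization. Leaving out 1 library gave 10 to 28 (12.3% to 34.6% of members), where 15.4% to 22.1% of all genes were higher. The count lower was 0 with no filter and without both WT 3 and KO 1, 2 under quantile normalization and 0 to 1 with 1 library left out. Assembly genes higher were 1 after the GC and length correction, with no filter, under quantile normalization and without both WT 3 and KO 1, and 0 to 5 with 1 library left out, and assembly genes lower were 32 after the correction. Other TOP mRNAs higher were 4 with no filter and 4 to 6 with 1 library left out, and 1 was lower under quantile normalization and scaled to total reads. RNA polymerase I genes lower were 2 to 5 with 1 library left out. Beyond these constructions the cause was not tested, and no named gene past the threshold changed sign. Of members not past it, RPLP2, RPL13 and RPL39 went from 0.17, 0.00 and 0.00 to −0.04, −0.15 and −0.04 after the correction. The labels do not say whether libraries with the same number were handled together. Deviations of equal numbers correlated at −0.07, −0.18 and −0.35, and the highest correlation was 0.37, between WT 2 and KO 3. Each library also carried its own GC trend, so these correlations do not settle whether the libraries were paired. The replicate block left 12 members higher and 0 lower, 4 other TOP mRNAs higher and 0 assembly genes higher. That is 14.8% of members, where 15.8% of all genes were higher under the block. With the GC and length correction the block gave 11 members higher, 0 lower and 1 assembly gene higher. There 13.6% of members and 16.6% of all genes were higher. In both forms of the block the members' share was thus not above that of all genes. Of 45 named genes tested, the side of the threshold changed for 13 with no filter, 10 under the block with the correction, 9 under the block, 7 under quantile normalization, 3 under the correction alone and 3 under total-read scaling, and for up to 11 with 1 library left out (WT 1). RPS10, RPL36A and RPL17, with 37 to 303 reads per library, limit what depth can show.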
